A study of Mus musculus with 2 samples.

Results

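Granzymes and the other effectors of cell killing were followed through the cytotoxic and T lymphocytes of the omentum of mice, an apron of abdominal fat dotted with lymphoid aggregates known as milky spots. The 9 genes (*Gzma*, *Gzmb*, *Gzmc*, *Gzmk*, *Gzmm*, *Prf1*, *Nkg7*, *Fasl* and *Ifng*) were taken by their symbols from the 19960 genes listed, and all 9 were found. They were read in 7 classes of lymphocytes, which held 3362 of the 8654 cells of WT mice and 610 of the 5727 cells of *Postn*-DTR mice. The levels behind these choices had been seen before, so the members are described and not tested as a list.

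The series compared single-cell RNA of omenta between 2 genotypes, WT and *Postn*-DTR, each treated with diphtheria toxin (DT) and collected 5 days later. In *Postn*-DTR mice the receptor for the toxin was placed in the gene of periostin, a matrix protein of fibroblastic stroma, so DT removes cells that express *Postn* wherever they lie, and WT mice received DT without the receptor. Each group is 1 library that pooled 3 mice, with neither ages nor a sort of the cells stated in the sources used here. With 1 library per group there is no measure of the spread between mice, so no p-value is given, and each interval covers counting error only.

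Cytotoxic lymphocytes kill by releasing granules onto a target. Perforin opens the target's membrane, and granzymes, a family of serine proteases, pass through and start cell death, which the serpin encoded by *Serpinb9* blocks in the killer itself. Fas ligand kills along a separate route through the death receptor Fas, and interferon-gamma is the secreted cytokine that activates macrophages and antigen presentation. NK cells are known to express granule genes without earlier activation, and most naive T cells to express little of them.

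In the GRCm38 annotation, 4 of the 5 granzyme genes lie in 2 pairs on the minus strand. *Gzmb* (ENSMUSG00000015437, chr14:56258838-56262260, 5 exons) and *Gzmc* (ENSMUSG00000079186, chr14:56231441-56234656, 5 exons) are 24181 bases apart with no coding gene between them. *Gzma* (ENSMUSG00000023132, chr13:113093825-113100981, 6 exons) and *Gzmk* (ENSMUSG00000042385, chr13:113171608-113225908, 6 exons) are 70626 bases apart, again with none between. *Gzmk* overlaps *Esm1* on the other strand, which is a listed gene as well. Chromosome 10 carries *Gzmm* (ENSMUSG00000054206, chr10:79689020-79695261), *Prf1* (ENSMUSG00000037202, chr10:61297833-61304680) and *Ifng* (ENSMUSG00000055170, chr10:118441046-118445892), all on the plus strand and far from each other, at least 18384339 bases apart. *Nkg7* (ENSMUSG00000004612, chr7:43437073-43438249) and *Fasl* (ENSMUSG00000000817, chr1:161780689-161788495) stand alone. Aligned transcripts of *Gzmb* and *Gzmc* were identical at 76.7% of bases yet shared no stretch of 50 bases. *Gzmc* shared 32 such stretches with *Gzme* and 21 with *Gzmg*, which were not analysed here, so its UMIs are uncertain.

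*Gzmb* and *Ifng* differed between the libraries in opposite directions in most classes compared, though not in CD4 T cells. Promoter windows are shown for these genes and for *Prf1*, the partner of *Gzmb* in the granule. Each runs from 250 bases before to 50 bases after the start that RefSeq gives the gene (GRCm38.p6, 5′ to 3′ on the gene's strand), and capitals mark the motifs found by letters on either strand.
*Gzmb*, chr14:56262285-56262584, minus strand: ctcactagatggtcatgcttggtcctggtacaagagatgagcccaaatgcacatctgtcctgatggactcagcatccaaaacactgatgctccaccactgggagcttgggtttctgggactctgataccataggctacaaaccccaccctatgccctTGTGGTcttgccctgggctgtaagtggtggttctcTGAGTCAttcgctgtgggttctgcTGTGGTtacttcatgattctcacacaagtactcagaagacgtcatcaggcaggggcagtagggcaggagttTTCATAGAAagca
*Ifng*, chr10:118440796-118441095, plus strand: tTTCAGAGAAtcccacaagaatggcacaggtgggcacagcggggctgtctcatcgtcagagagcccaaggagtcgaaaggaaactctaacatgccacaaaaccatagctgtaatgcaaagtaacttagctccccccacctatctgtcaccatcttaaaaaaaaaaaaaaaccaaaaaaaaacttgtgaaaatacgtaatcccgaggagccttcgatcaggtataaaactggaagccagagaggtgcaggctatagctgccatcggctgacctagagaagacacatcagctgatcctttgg
*Prf1*, chr10:61297586-61297885, plus strand: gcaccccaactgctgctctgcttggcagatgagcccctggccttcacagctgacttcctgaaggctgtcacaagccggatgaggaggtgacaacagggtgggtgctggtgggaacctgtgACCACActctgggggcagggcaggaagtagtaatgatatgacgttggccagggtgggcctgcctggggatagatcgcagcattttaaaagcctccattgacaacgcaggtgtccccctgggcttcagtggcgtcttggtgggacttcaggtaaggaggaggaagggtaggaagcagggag

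In the *Gzmb* window the Runx motif TGTGGT began 93 and 34 bases upstream of the start, the AP-1 motif TGANTCA began 58 bases upstream, and a STAT motif TTCNNNGAA lay 37 bases downstream. These positions hold for the RefSeq start only, since the whole *Gzmb* window lies upstream of the gene as annotated above. The *Ifng* window held 1 STAT motif, 249 bases upstream, and the *Prf1* window held 1 Runx motif on the other strand, 130 bases upstream. Of 32544 promoter windows of the same length, 16.7% held the Runx motif, 7.79% the AP-1 motif and 8.33% the STAT motif. The T-box motif TCACACC (3.95% of windows) and the CRE motif TGACGTCA (1.80%) were searched as well and were in none of these 3 windows. Such matches describe letters and not binding.

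The classes were rebuilt by clustering and named from marker genes. NK-like cells numbered 380 in WT and 141 in *Postn*-DTR (4.39% and 2.46% of all cells), NKT-like cells 646 and 118 (7.46% and 2.06%), T cells named CD8 T-like 368 and 48 (4.25% and 0.838%), CD4 T-like cells outside the naive cluster 553 and 93 (6.39% and 1.62%), regulatory (Treg-like) cells 446 and 110 (5.15% and 1.92%), and gamma-delta T-like cells 509 and 77 (5.88% and 1.34%). Naive CD4 T-like cells numbered 460 and 23 (5.32% and 0.402%), too few in *Postn*-DTR for a comparison, and are described only. Each class was thus a smaller share of the *Postn*-DTR library, where 1 library per group leaves this as a description.

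Markers that define the classes fitted some names better than others. *Ncr1*, the receptor NKp46 of NK cells, was detected in 91.6% of WT and 80.1% of *Postn*-DTR NK-like cells, in which the T cell gene *Cd3e* was detected in 6.05% and 2.84%. NKT-like cells held *Cd3e* in 94.4% and 93.2% and the NK receptor gene *Klrb1c* in 46.7% and 64.4%. Their larger sub-cluster (525 and 94 cells) held *Zbtb16*, the factor of innate-like T cells, in 6.86% and 12.8%, *Trdc* in 19.0% and 6.38% and *Ncr1* in 21.5% and 14.9%, so the name holds less firmly there than in the smaller one, in which 46.3% and 58.3% held *Zbtb16*. *Cd8b1* was detected in 98.9% and 100% of CD8 T-like cells and *Foxp3* in 52.5% and 57.3% of Treg-like cells. Of the gamma-delta T-like cells 57.8% and 57.1% held *Trdc*, the delta chain constant gene. They formed 2 sub-clusters, one with *Trdc* in 89.8% of WT cells and the other with *Trdc* in 20.1% and the helper gene *Cd40lg* in 55.1%, so the name holds less firmly for the second. Median UMIs per cell within a class ran from 3618 to 5455 (WT) and from 2714.5 to 6752 (*Postn*-DTR), against 5635 and 8472 over all cells.

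RNA of other cells differed between the libraries in these classes. The summed level of neutrophil markers in NK-like cells was 0.340 UMIs per 10000 for WT against 1.14 for *Postn*-DTR, and it was higher in *Postn*-DTR in all 7 classes, as was the summed level of plasma cell markers (2.13 and 3.36 in NK-like cells). Of the members, *Nkg7* was also found in a myeloid cluster led by *Elane*, *Mpo* and *Prtn3*, in 80.2% of 121 WT cells (level 6.58, 3184 UMIs) and 64.9% of 208 *Postn*-DTR cells (level 3.20, 1981 UMIs). Summed T cell markers were lower in *Postn*-DTR in all 7 classes (31.5 against 26.0 in NKT-like cells). The part of these shifts in the values below was not tested.

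NK-like cells were the main holders of granzyme A, a protease with tryptase-like cutting. The level of *Gzma*, the mean over cells of UMIs per 10000, was 63.1 (9007 UMIs) in the WT library and 50.5 (2733 UMIs) in that of *Postn*-DTR, and these cells held 85.5% and 79.7% of all *Gzma* UMIs of their libraries. Both levels were far above those of every T class. In WT the next levels were 0.388 in CD8 T-like and 0.281 in NKT-like cells, and a single NKT-like cell gave 43 of the 113 UMIs of its class. *Gzma* was detected in 77.4% and 74.5% of NK-like cells, against 0.537% of 1489 and 0 of 424 B2 B-like cells, which should lack it and whose median depth was 4413 and 3225 UMIs.

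*Prf1*, which encodes perforin, also stood highest in NK-like cells. Its level there was 7.53 (1053 UMIs) and 4.15 (215 UMIs), WT first. CD8 T-like cells followed at 0.700 and 0.304, and NKT-like cells at 0.532 and 0.286, and the counting intervals of these 2 classes overlapped in each library. CD4, Treg-like and gamma-delta T-like cells stayed at 0.0951 or below, near the 0.0441 of WT B2 B-like cells, and naive CD4 T-like cells held 0.180 in WT and no UMI in *Postn*-DTR.

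*Gzmb* encodes the granzyme that cuts after aspartate and activates caspases. It was highest in NK-like cells in both libraries, at 5.46 (757 UMIs) for WT against 7.74 (421 UMIs) for *Postn*-DTR. In WT the other levels ran from 0.624 in Treg-like cells through NKT-like (0.499), gamma-delta (0.378), CD8 (0.30) and CD4 (0.093) to 0.0167 in naive CD4 T-like cells. The WT counting intervals of Treg-like and NKT-like cells overlapped, as did those of NKT-like and gamma-delta T-like cells. In *Postn*-DTR the order was NKT-like (2.04), Treg-like (2.0), gamma-delta (1.36), CD8 (0.966), naive CD4 (0.703) and CD4 T-like cells (0.414), and below NK-like cells the intervals of neighbours in that order overlapped, except those of Treg-like and gamma-delta T-like cells. These lay apart on summed UMIs per 10000, from 2.35 to 3.49 for Treg-like and from 1.19 to 1.97 for gamma-delta T-like cells. No *Gzmb* UMI was found in 1489 WT or 424 *Postn*-DTR B2 B-like cells, which allows up to 0.201% and 0.708% of such cells to hold a UMI, a limit on detection and not on expression.

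*Gzmk* and *Gzmm* were genes of T cells more than of NK-like cells. *Gzmk*, a granzyme of memory T cells, was found in CD8 T-like cells at 1.06 (WT) against 0.636 (*Postn*-DTR), and in CD4 T-like cells at 0.580 against 1.43, so that the order of the 2 classes was turned around between the libraries. No *Gzmk* UMI was found in gamma-delta or naive CD4 T-like cells of either library. *Gzmm*, a granzyme that cuts after methionine or leucine, was highest in CD8 T-like cells (0.449 and 0.354), ahead of NK-like cells (0.170 and 0.119) and NKT-like cells (0.158 and 0.0687), whose intervals overlapped each other in both libraries. In *Postn*-DTR they overlapped that of CD8 T-like cells too. *Gzmc* was rare, with 88 WT and 39 *Postn*-DTR UMIs over the 7 classes, and 1 NKT-like cell held 30 of the WT UMIs.

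*Nkg7*, a granule membrane protein needed for degranulation, was high in several classes. Its level was 34.1 and 28.8 in NK-like cells, 14.7 and 13 in NKT-like cells, 13.6 and 15.2 in CD8 T-like cells and 6.14 and 6.72 in CD4 T-like cells (WT and *Postn*-DTR), and it fell to 0.978 or below in the other 3 classes. In these first 3 classes it was detected in at least 94.6% of cells of each library. *Fasl*, the death ligand, followed a similar order but with CD4 T-like cells (1.42 and 2.13) beside NKT-like cells (1.58 and 1.67), whose intervals overlapped in each library. Its highest level was again in NK-like cells, at 3.55 and 3.0.

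*Ifng*, the cytokine, was found in WT at 1.65 in NK-like cells, 1.34 in NKT-like cells and 0.669 in CD4 T-like cells. The order was different in *Postn*-DTR, where CD4 T-like cells stood first at 1.27, ahead of NK-like (0.725) and NKT-like cells (0.547). The first place of CD4 T-like cells rests on few cells, since 25 of the 54 UMIs came from 1 cell.

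**Figure D1:**
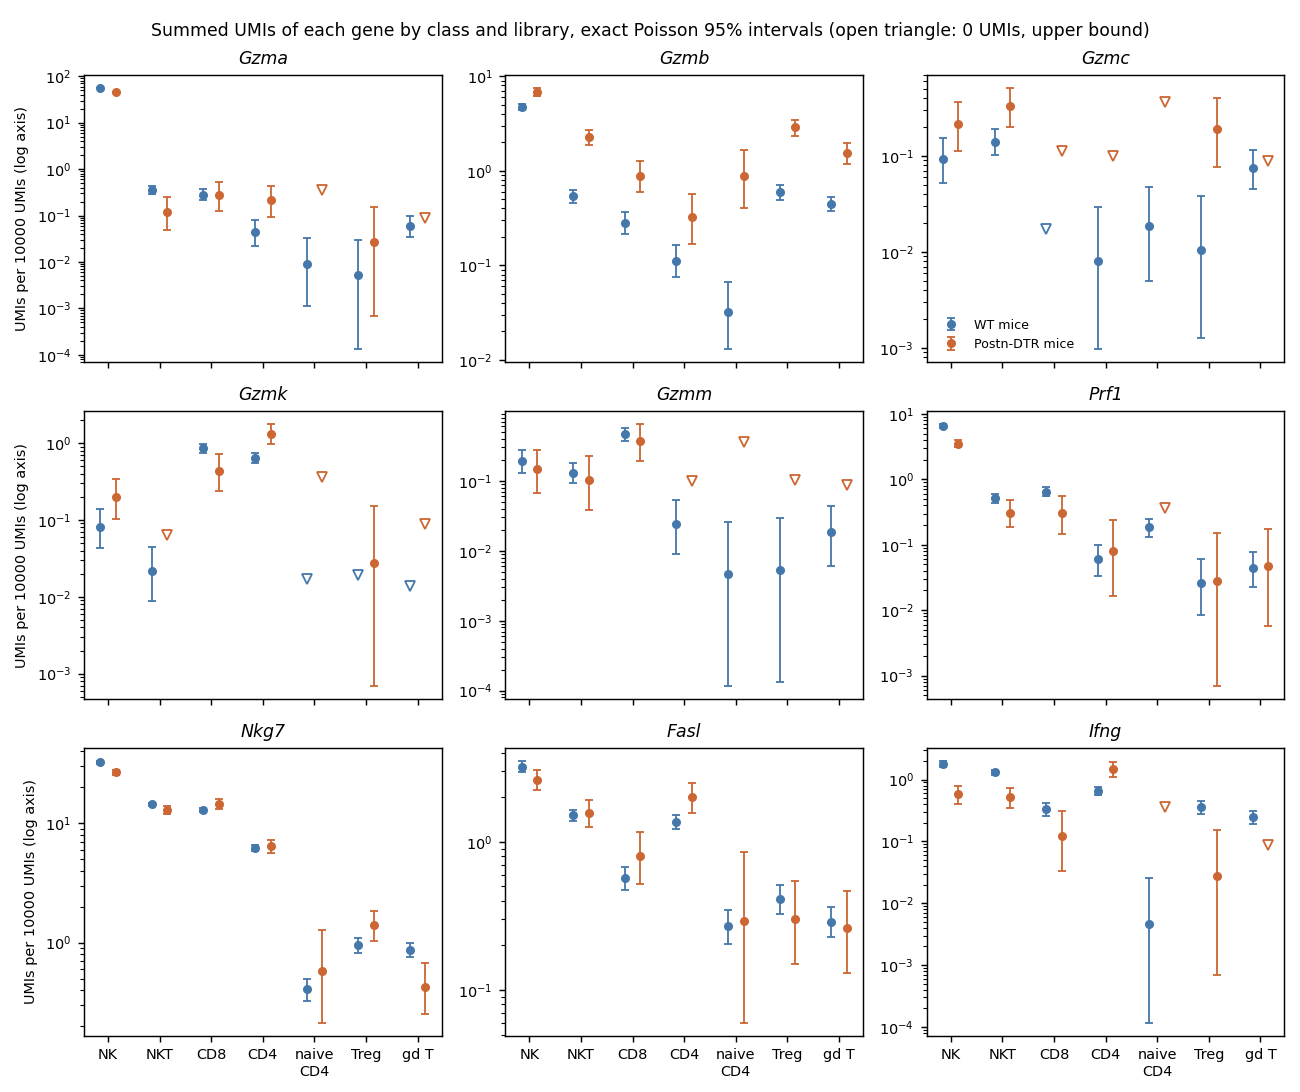
Each panel plots 1 gene as summed UMIs per 10000 UMIs of the class (log axis) in the 7 classes, for WT (blue) and *Postn*-DTR mice (orange), with exact Poisson 95% intervals and open triangles as upper bounds where no UMI was found (gd T, gamma-delta T). *Gzma* and *Prf1* stand far above the rest in NK cells, *Gzmk* and *Gzmm* peak in T cells, and the *Gzmb* points of *Postn*-DTR lie above those of WT in every class.

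The libraries were then compared within 6 classes, which asks how the effector programme of each lymphocyte differed after loss of the *Postn*-expressing stroma. A gene was called when its level (0.02 added to both) differed by 2-fold or more, the class held 20 UMIs or more over both libraries, and the exact 95% interval of the ratio of summed UMIs lay apart from 1 on the same side. Of the 54 pairs of a member and a class, 39 had enough UMIs, 8 were called higher and 6 lower in *Postn*-DTR. *Gzmb* was called higher in 5 of the 6 classes, and *Ifng* was called lower in 5 of the 6.

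The share of all genes called by the same rule gives the background. In NK-like cells 1.81% of 8169 genes were called higher and 1.6% lower, against 2 members higher (*Gzmc* and *Gzmk*) and 1 lower (*Ifng*) of 9. In NKT-like cells 1.5% of 8938 genes were called higher and 1.72% lower, against 1 (*Gzmb*) and 1 (*Ifng*) of 8 members. In CD8 T-like cells the background was 2.16% and 2.78% of 7834 genes, against 1 higher (*Gzmb*) and 2 lower (*Ifng* and *Prf1*) of 8. In CD4 T-like cells it was 2.26% and 2.03% of 8533 genes, against 2 higher (*Gzmb* and *Gzmk*) and none lower of 5. In Treg-like cells it was 2.43% and 2.31% of 8191 genes, against 1 higher (*Gzmb*) and 1 lower (*Ifng*) of 4. In gamma-delta T-like cells it was 2.04% and 3.42% of 8793 genes, against 1 (*Gzmb*) and 1 (*Ifng*) of 5. The median log2 ratio of the members with enough UMIs was between -0.66 and -0.14 in 5 classes and 0.91 in CD4 T-like cells, where that of all genes tested was between -0.095 and 0.0057.

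**Figure D2:**
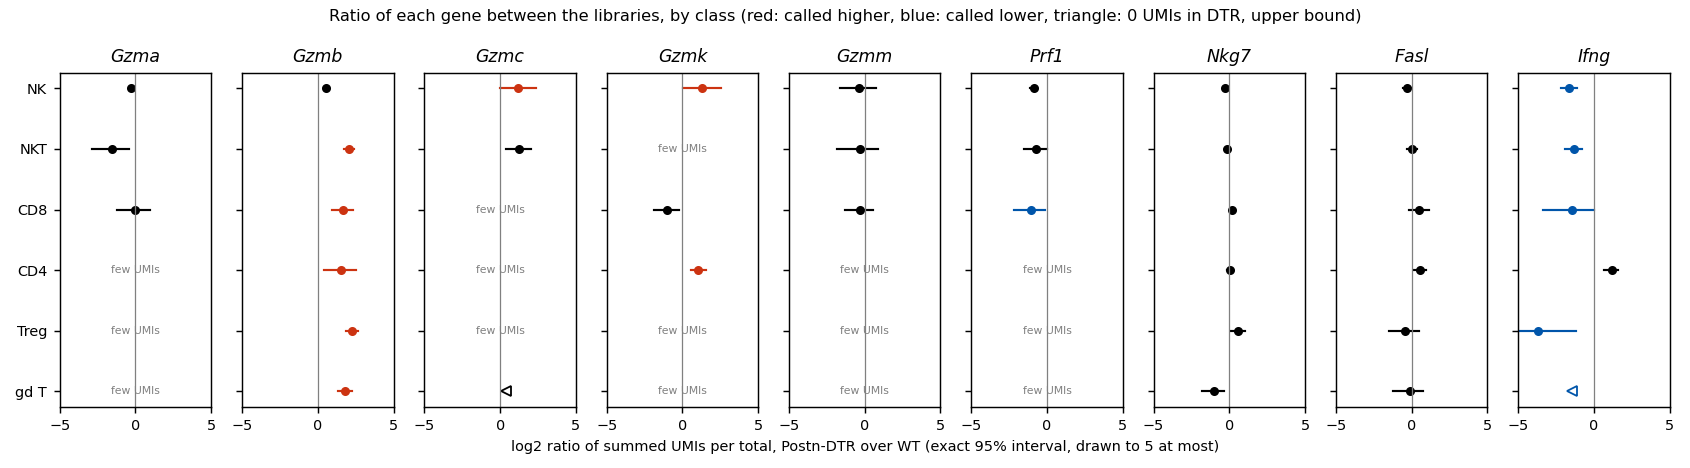
Each panel plots 1 gene as the log2 ratio of summed UMIs per total, *Postn*-DTR over WT, in the 6 classes compared, with exact 95% intervals. Red points were called higher, blue points lower, and triangles mark upper bounds for 0 UMIs in *Postn*-DTR. *Gzmb* lies right of 0 in all 6 classes and *Ifng* left of 0 in 5, with CD4 T cells to the right.

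*Gzmb* was higher in *Postn*-DTR in each T class compared. In NKT-like cells its level was 0.499 (172 UMIs) for WT against 2.04 (131 UMIs) for *Postn*-DTR. The log2 ratio was 1.99, where the interval of the summed UMIs was 1.73 to 2.41. In CD8 T-like cells the levels were 0.30 (61 UMIs) and 0.966 (29 UMIs), a log2 ratio of 1.62 (interval 0.96 to 2.31) that was 1.09 without the 1 cell called a doublet. In gamma-delta T-like cells they were 0.378 (121 UMIs) and 1.36 (65 UMIs), a log2 ratio of 1.79 (interval 1.33 to 2.23). Each of these differences was larger than counting error, while the spread between mice is unknown.

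The other T classes gave the same direction from fewer cells. In Treg-like cells the *Gzmb* level was 0.624 (113 UMIs) and 2.0 (105 UMIs), a log2 ratio of 1.65. The interval of the summed UMIs, 1.89 to 2.68, lay above that value. A single *Postn*-DTR cell held 45 of the UMIs, and without the highest cell of each library the log2 ratio was 1.46. CD4 T-like cells held 28 and 12 UMIs, at levels of 0.093 and 0.414, a log2 ratio of 1.94 (interval 0.42 to 2.55). Without the highest cell of each library this interval reached below 0, from -0.11 to 2.72, and the call was lost. Naive CD4 T-like cells held 7 UMIs in 460 WT cells and 9 UMIs in 23 *Postn*-DTR cells. In NK-like cells the log2 ratio was 0.50 (interval 0.38 to 0.73), under the 2-fold limit.

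The share of cells with *Gzmb* differed as well as its level. When each cell was thinned to 1000 UMIs, *Gzmb* was found in 3.73% (95% interval 2.41% to 5.50%) of WT and 17.1% (10.8% to 25.2%) of *Postn*-DTR NKT-like cells. The shares were 1.90% (0.768% to 3.88%) and 14.6% (6.07% to 27.8%) in CD8 T-like cells, and 1.96% (0.946% to 3.58%) and 10.4% (4.59% to 19.5%) in gamma-delta T-like cells. These 3 pairs of intervals lay apart. Those of Treg-like cells (2.93% and 8.26%), CD4 T-like cells (0.727% and 4.35%) and NK-like cells (26.2% and 30%) overlapped, and thinned B2 B-like cells held none. Thinning to 1000 UMIs left out at most 4 cells of a class in a library. At 2000 UMIs per cell the intervals of Treg-like cells lay apart too (2.27% to 6.34% for WT and 6.98% to 23.0% for *Postn*-DTR), with 41 and 29 Treg-like cells left out. Without thinning, the shares were 13% and 34.7% in NKT-like, 6.79% and 29.2% in CD8 T-like, 8.25% and 20.8% in gamma-delta, 5.83% and 15.5% in Treg-like, 2.17% and 8.60% in CD4 T-like and 43.2% and 50.4% in NK-like cells.

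**Figure D3:**
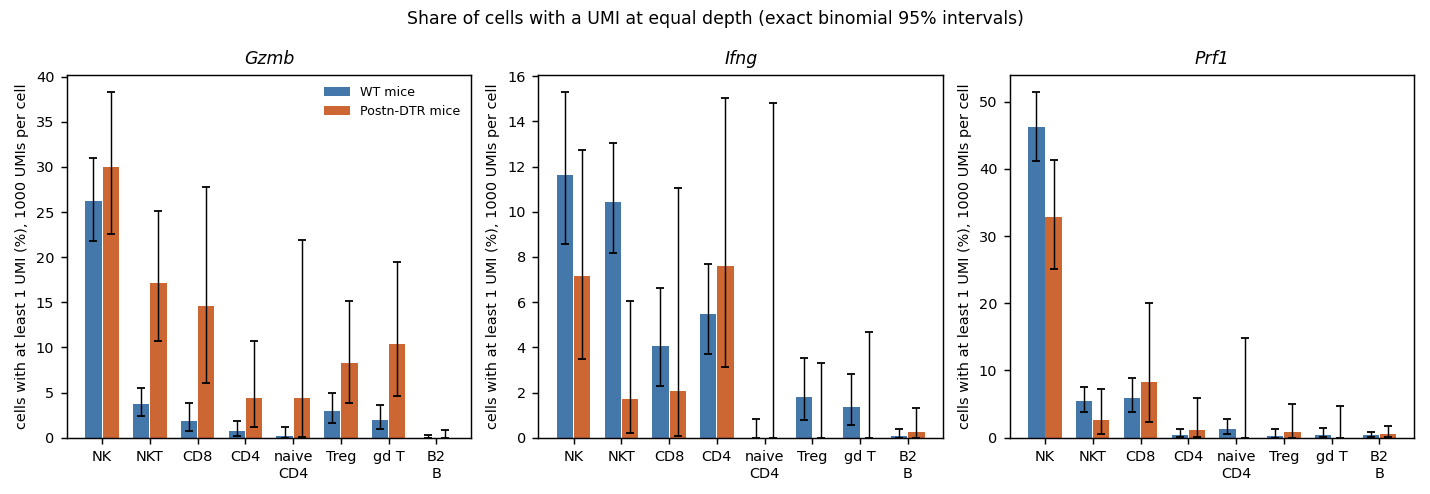
Bars give the share of cells with at least 1 UMI of *Gzmb*, *Ifng* or *Prf1* after thinning each cell to 1000 UMIs, for WT (blue) and *Postn*-DTR mice (orange), with exact binomial 95% intervals and B2 B cells as background. At this depth the *Gzmb* bars of NKT, CD8 and gamma-delta (gd) T cells differ beyond their intervals, as do the *Ifng* bars of NKT cells.

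Sub-clusters show where *Gzmb* differed within a class. Both NKT-like sub-clusters were called higher, with log2 ratios of 2.02 in the one of 525 and 94 cells, in which 46.5% of WT cells held the NK receptor gene *Klra1*, and 1.87 in the one of 121 and 24 cells, in which 46.3% held *Zbtb16*. Both gamma-delta sub-clusters were called as well, at 1.28 in the one rich in *Trdc* (90 and 32 UMIs) and 2.94 in the other (31 and 33 UMIs). Among CD8 T-like cells *Gzmb* was called in the sub-cluster with a naive state, in which 87.9% of WT cells held the homing receptor gene *Ccr7*. There *Gzmb* was found in 2.90% of 207 WT cells (7 UMIs) and 29.0% of 31 *Postn*-DTR cells (19 UMIs), a log2 ratio of 3.36. In the sub-cluster with *Gzmk* it was found in 11.8% of 161 WT cells (54 UMIs) and 29.4% of 17 *Postn*-DTR cells (10 UMIs), a log2 ratio of 1.16 that was not called, since its interval held 0 (-0.50 to 1.62). The difference between these 2 ratios was not tested.

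*Gzma* and *Prf1* were found with *Gzmb* in a smaller share of T cells than of NK-like cells. Of the NK-like cells with a *Gzmb* UMI, 91.5% of 164 WT cells and 87.3% of 71 *Postn*-DTR cells also held *Gzma*, and 91.5% and 76.1% held *Prf1*. Both genes were common in NK-like cells without a *Gzmb* UMI too, with *Gzma* in 66.7% and 61.4% and *Prf1* in 70.4% and 52.9%. Of the *Gzmb*-positive cells of the 6 T classes, including naive CD4, 6.74% of 193 WT cells and 5.05% of 99 *Postn*-DTR cells held *Gzma*, and 18.7% and 9.09% held *Prf1*. The shares differed between T classes. In WT, *Prf1* was held by 36% of 25 *Gzmb*-positive CD8 T-like cells and 26.2% of 84 NKT-like ones. Of the cells of these classes without a *Gzmb* UMI, 28.6% and 19.2% held it. In WT gamma-delta T-like cells *Prf1* was held by 11.9% of 42 cells with a *Gzmb* UMI and 1.28% of those without. None of 26 WT Treg-like and 12 WT CD4 T-like cells with a *Gzmb* UMI held *Prf1*, where only 0.952% and 2.22% of those without one did. *Gzma* was held by 20% of the 25 CD8 T-like and 5.95% of the 84 NKT-like cells, against 2.62% and 2.85% of those without *Gzmb*. In *Postn*-DTR, *Prf1* was held by 14.3% of 14 *Gzmb*-positive CD8 T-like, 17.1% of 41 NKT-like and 0% of 16 gamma-delta T-like cells. Of those without a *Gzmb* UMI, 17.6%, 10.4% and 3.28% held it. The 2 granzymes stood in different ratios in NK-like and T cells. *Postn*-DTR NK-like cells held 2733 UMIs of *Gzma* and 421 of *Gzmb*, whereas *Postn*-DTR NKT-like cells held 7 and 131, Treg-like cells 1 and 105, and gamma-delta T-like cells 0 and 65. The counts were closer to each other in *Postn*-DTR CD8 (9 and 29) and CD4 T-like cells (8 and 12). In WT they were 61 and 61 in CD8 T-like, 113 and 172 in NKT-like, and 1 and 113 in Treg-like cells.

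**Figure D4:**
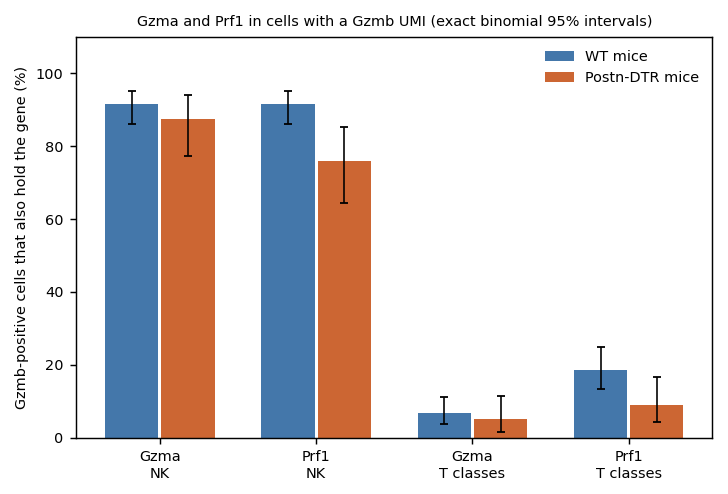
Bars give the share of *Gzmb*-positive cells that also held *Gzma* or *Prf1*, in NK cells and in the 6 T classes together, for WT (blue) and *Postn*-DTR mice (orange), with exact binomial 95% intervals. In NK cells the bars stand between 76.1% and 91.5%, and in T cells between 5.05% and 18.7%.

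*Ifng* differed the other way. In NKT-like cells its level was 1.34 (420 UMIs) for WT against 0.547 (30 UMIs) for *Postn*-DTR. The log2 ratio was -1.26 with an interval of -1.93 to -0.81. In NK-like cells the levels were 1.65 (286 UMIs) and 0.725 (35 UMIs), a log2 ratio of -1.16 (interval -2.18 to -1.12). In CD8 T-like cells they were 0.370 (72 UMIs) and 0.165 (4 UMIs), a log2 ratio of -1.08 (interval -3.36 to -0.031). Only 2 *Postn*-DTR CD8 T-like cells held the gene.

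Gamma-delta T-like cells held 67 *Ifng* UMIs in WT, in 14 cells with 18 UMIs in 1 of them, and none in *Postn*-DTR. On summed UMIs this is at least 3.48-fold lower when 3 UMIs are allowed for the count of 0. By cells, 2.75% of 509 WT cells held *Ifng* against 0 of 77. The upper limit of the latter, 4.68%, lay above the WT share, so the cells set no minimum fold. In the gamma-delta sub-cluster rich in *Trdc*, *Ifng* had 26 and 0 UMIs and was not called, since its interval reached 0.016. In the other, for which the name holds less firmly, it had 41 and 0 UMIs and was called lower. The difference between the 2 sub-clusters was not tested. Treg-like cells held 68 UMIs in 20 WT cells and 1 UMI in *Postn*-DTR, a log2 ratio of -2.33. In CD4 T-like cells the level was higher in *Postn*-DTR, 0.669 (163 UMIs) against 1.27 (54 UMIs), a log2 ratio of 0.91 that was under the 2-fold limit and was 0.42 without the highest cell of each library. The border between CD4 and Treg-like cells bears on these last values. With both classes pooled the log2 ratio was 0.35 (231 and 55 UMIs), and under other clusterings the direction turned in each class.

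At equal depth the share of NKT-like cells with *Ifng* was 10.4% (8.17% to 13%) for WT against 1.71% (0.208% to 6.04%) for *Postn*-DTR, with intervals apart. The intervals overlapped in NK-like cells (11.6% and 7.14%), CD8 T-like cells (4.08% and 2.08%), CD4 T-like cells (5.45% and 7.61%), Treg-like cells (1.81% and 0%) and gamma-delta T-like cells (1.38% and 0%). The unthinned shares were 28.0% and 11.9% in NKT-like and 30.3% and 17.7% in NK-like cells. Within NKT-like cells *Ifng* was called lower in the sub-cluster with *Klra1* (1.06 and 0.320, log2 ratio -1.67) and was not called in the one with *Zbtb16* (2.54 and 1.44, log2 ratio -0.81). The difference between these 2 ratios was not tested.

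*Prf1* was lower in *Postn*-DTR in the classes that hold it. The log2 ratio was -0.86 in NK-like cells (interval -1.11 to -0.68) and -0.85 in NKT-like cells (165 and 18 UMIs, interval -1.52 to -0.025), both under the 2-fold limit. In CD8 T-like cells it was -1.15 (140 and 10 UMIs, interval -2.18 to -0.17) and was called. There the sub-cluster with *Gzmk* held 78 UMIs in 161 WT cells and none in 17 *Postn*-DTR cells, at least 3.1-fold lower on summed UMIs. By cells, *Prf1* was found in 35.4% of the 161 and in none of the 17, with an upper limit of 19.5%, which allows a smaller fold. The naive-state sub-cluster held 62 and 10 UMIs, a log2 ratio of 0.065. At 1000 UMIs per cell *Prf1* was found in 46.3% (41.2% to 51.5%) of WT and 32.9% (25.2% to 41.3%) of *Postn*-DTR NK-like cells, with intervals that overlapped slightly. At 2000 UMIs per cell these intervals lay apart (54.9% to 65.2% and 35.9% to 53.2%).

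The other granzymes gave fewer calls. *Gzma* in NK-like cells had a log2 ratio of -0.32 (interval -0.38 to -0.26). *Gzmk* was called higher in CD4 T-like cells, with 159 UMIs in 46 WT cells and 49 UMIs in 18 *Postn*-DTR cells, a log2 ratio of 1.27 (interval 0.56 to 1.52). In NK-like cells *Gzmk* (13 and 12 UMIs, log2 ratio 1.24) and *Gzmc* (15 and 13 UMIs, log2 ratio 1.34) were called on counts so low that both calls were lost without the highest cell of each library. *Gzmk* in CD8 T-like cells stood at a log2 ratio of -0.72 (183 and 14 UMIs), and *Gzmm* at -0.33 in the same cells (99 and 12 UMIs) with an interval that held 0. For *Nkg7* and *Fasl* the log2 ratios in the 6 classes ran from -0.66 to 0.45 and from -0.74 to 0.58, and none was called. Within the naive-state CD8 sub-cluster *Fasl* held 17 and 11 UMIs, a log2 ratio of 1.87 that was called. In the gamma-delta sub-cluster rich in *Trdc*, *Nkg7* was called lower on 49 UMIs against 0, at least 2.46-fold lower on summed UMIs. By cells it was found in 4.36% of 275 WT cells and in 0 of 36 *Postn*-DTR cells. The upper limit of the latter, 9.74%, lay above the WT share.

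Genes that work with the members were read from a list of 51, of which 46 are in the files. Rab27a docks granules at the membrane, and its gene was called higher in NK-like (log2 ratio 1.21), NKT-like (1.33), CD8 T-like (1.43) and Treg-like cells (1.25). *Serpinb9*, the inhibitor of granzyme B, was called higher in NKT-like cells (1.83 for WT against 4.87 for *Postn*-DTR, log2 ratio 1.40), CD8 T-like cells (0.469 and 1.15, 1.26), CD4 T-like cells (0.607 and 1.49, 1.27) and gamma-delta T-like cells (0.703 and 1.77, 1.31). All 4 of these classes also had *Gzmb* called higher. In Treg-like cells, where *Gzmb* was called as well, *Serpinb9* had a log2 ratio of -0.026 (82 and 17 UMIs) and the related *Serpinb6b* one of 1.34. In NK-like cells *Serpinb9* had 0.53 and its relative *Serpinb9b* was called at 1.41.

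The calls among 4 chemokines that are released beside the granules were all lower. *Ccl3*, an inflammatory chemokine, had a log2 ratio of -1.37 in NK-like cells (440 and 56 UMIs) and 37 UMIs against 0 in NKT-like cells, at least 2.23-fold lower. Its relative *Ccl4* had -3.43 in NKT-like cells (214 and 2 UMIs) and -1.55 in CD8 T-like cells (167 and 7 UMIs). *Xcl1*, which attracts cross-presenting dendritic cells, had -1.27 in NK-like cells (1417 and 262 UMIs) and -2.10 in CD8 T-like cells (126 and 4 UMIs). In gamma-delta T-like cells *Xcl1* was called on 26 UMIs against 0, at least 1.35-fold lower, and *Ccl5* had -1.13 (673 and 16 UMIs). In the other 5 classes *Ccl5* was not called and had log2 ratios from -0.14 to 0.56, and *Xcl1* in CD4 T-like cells had 0.47, not called either. Over the list, 2 genes were called higher and 3 lower of 43 with enough UMIs in NK-like cells, 2 and 3 of 44 in NKT-like, 3 and 3 of 41 in CD8 T-like, 3 and 2 of 44 in CD4 T-like, 2 and 0 of 39 in Treg-like, and 1 and 6 of 41 in gamma-delta T-like cells. Of all genes, 1.5% to 2.43% were called higher and 1.6% to 3.42% lower in these classes. The counts of the list were not tested against these shares.

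Of 9 listed transcription factors of the cytotoxic programme, 2 were called in at least 1 class. The share of all genes called in 1 direction in 1 class was 1.5% to 3.42%. *Zeb2*, a factor of terminal effector cells, was called lower in NK-like cells (-1.37) and higher in CD4 T-like cells (1.59, 27 and 11 UMIs), and *Eomes*, a T-box factor of NK and memory T cells, lower in NKT-like cells (-1.44). In NK-like cells *Eomes* (-0.61) and *Id2* (-0.45) were under the 2-fold limit with intervals below 0. *Tbx21*, which encodes T-bet, the factor that drives *Ifng*, had log2 ratios of -0.068 in NK-like and 0.12 in NKT-like cells, the classes with the most *Ifng* in WT, and was not called in any class. Among genes of interferon-gamma sensing, the receptor gene *Ifngr1* was called higher in CD8 (1.04) and CD4 T-like cells (1.03), and the target gene *Irf1* lower in gamma-delta T-like cells (-1.19). *Il18r1*, the receptor of interleukin 18, was called lower in CD4 T-like cells (-1.32), the receptor gene *Il12rb1* of interleukin 12 lower in gamma-delta T-like cells (-1.06), and the death receptor gene *Tnfrsf10b* lower in CD4 T-like cells on 31 UMIs against 0, at least 1.54-fold lower. Gamma-delta T-like cells also had 2 genes of granule transport and fusion called lower, *Lyst* (-1.78) and *Unc13d* (-1.53), while *Srgn*, the proteoglycan core of the granule, had 0.89 (13.3 and 24.6) and was not called. Of the genes named by their place at the ends of the list that were not called, *Eomes* had -1.40 in CD4 T-like cells, and *Il12rb1* and *Ctsw* had -1.74 and -0.80 in Treg-like cells.

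**Figure D5:**
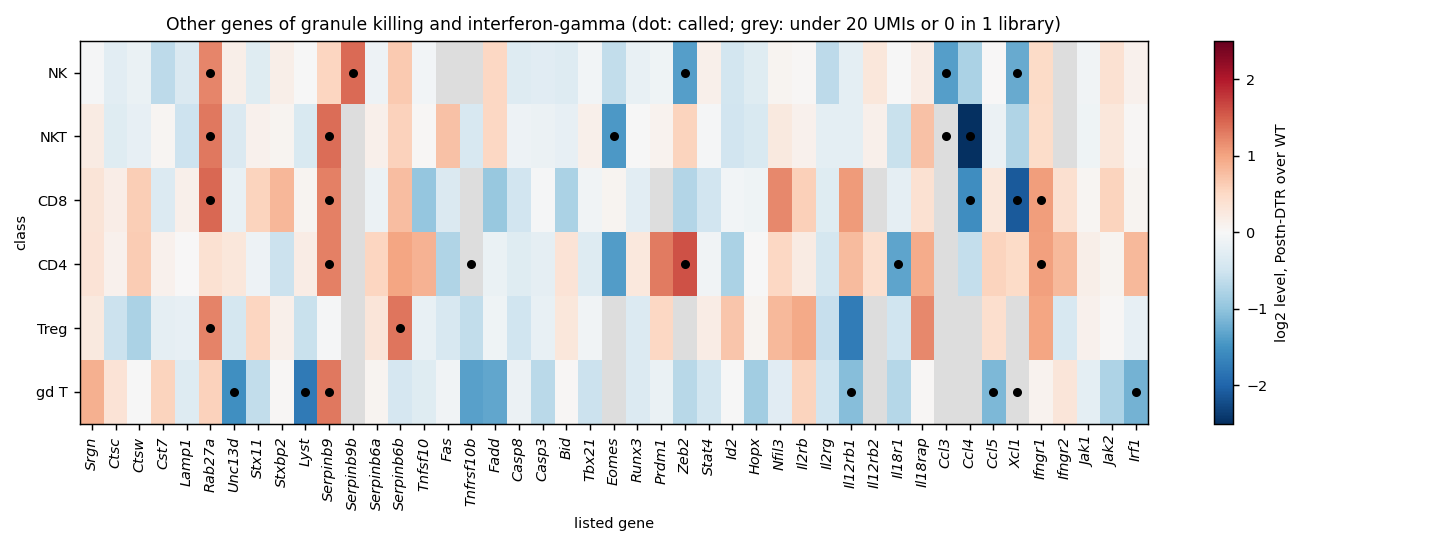
Colour gives the log2 ratio of the level, *Postn*-DTR over WT, of the reported genes of granule killing and interferon-gamma in the 6 classes (gd T, gamma-delta T). Dots mark genes called by the rule, and grey cells had under 20 UMIs or none in 1 library. *Rab27a* and *Serpinb9* are called higher in 4 classes each, and the calls among the chemokines *Ccl3*, *Ccl4*, *Ccl5* and *Xcl1* are all lower.

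The pattern of each member over 15 classes of leukocytes in both libraries, 30 groups that share their library and depth, was set beside that of all other genes by Pearson's r on log2 values. *Gzma* was most like *Adamts14* (0.97), *Styk1* (0.96) and *Klra4* (0.96), and *Adamts14* lies 24394 bases from *Prf1*. *Prf1* was most like *Eomes* (0.95), *Ugcg* (0.94) and *Gzma* (0.93). *Gzmb* followed *Gm33104* (0.88), *Itga2* (0.87) and *Gm16001* (0.87), and *Gzmc* followed *Klrb1c* (0.84), *Itga2* (0.84) and *Fzd5* (0.83). *Gzmk* was most like *Gm35037* (0.88), *Als2cl* (0.81) and *Themis* (0.78), and *Gzmm* like *Crtam* (0.94), *Lcn4* (0.89) and *Cd8b1* (0.85).

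*Nkg7*, *Fasl* and *Ifng* were like one another. *Nkg7* was most like *Fasl* (0.96), *Gm2682* (0.96) and *Ctsw* (0.95), *Fasl* like *Gm2682* (0.96), *Nkg7* (0.96) and *Ifng* (0.95), and *Ifng* like *Fasl* (0.95), *Tbx21* (0.90) and *Nkg7* (0.90). Between members r was 0.70 for *Gzma* with *Gzmb* and 0.75 for *Gzmb* with its neighbour *Gzmc*, but 0.30 for *Gzma* with its neighbour *Gzmk*.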

How the data were processed

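The deposited matrices hold natural log values, for which the authors had scaled each cell to 10000 UMIs and added 1. Per the submitters' processing notes the authors used Cell Ranger 6.0.0 and mm10, whereas the study's methods name another version. The labels give a 5′ kit, the methods a 3′ kit, which could change where in a transcript UMIs fall. UMIs were recovered by dividing each cell's values by its smallest step (whole within 0.1 for 99.96% of WT and 99.91% of *Postn*-DTR values). Cells with 200 to 7500 genes and at most 25% mitochondrial UMIs were kept, 8654 with 80152223 UMIs and 5727 with 81011081, and 65 barcodes occur in both libraries. Seurat 5.3.0 (sctransform 0.4.2, 3000 variable features without 48 of the listed genes, 30 components, resolution 0.8) clustered them, and T and NK cells were clustered again, chosen after the first clusters had merged classes. Scrublet (scanpy 1.11.5) marked 2 WT cells (0.0231%), so it had not worked there, and 103 *Postn*-DTR cells (1.80%). Doublets were removed only in alternatives.

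Intervals are exact Poisson, Clopper-Pearson or conditional binomial 95% intervals, which cover counting error only. The 0.02 added to levels shrinks ratios of low genes. The members and lists were chosen with earlier results of these data known. Named genes are all members, the 2 highest and 2 lowest listed genes per class with 50 UMIs or more, the 3 genes most like each member, and the called genes of the list, which were added after their values were seen. The names of 19932 of 19960 identifiers were found in GENCODE for GRCm38, and promoter sequences are from RefSeq. The steps were tested on simulated data. A gene of the list is counted in its totals but not reported here by name.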

Additional observations from a re-analysis of the deposited data

Results flagged for a closer look

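Members were also found in clusters outside the named classes, above their level in B2 B-like cells. In a cycling cluster led by *Cenpf* and *Top2a*, with a median of 13984 UMIs per cell, the shares of 93 WT cells were 17.2% for *Gzmb*, 14.0% for *Prf1*, 28.0% for *Fasl* and 26.9% for *Ifng*. They were 8.60% for *Gzma* (540 UMIs) and 8.60% for *Gzmk* (125 UMIs). Of 30 *Postn*-DTR cells of that cluster, 53.3% held *Gzmb*, 36.7% *Ifng*, 33.3% *Gzma*, 30% *Gzmk*, 30% *Prf1* and 26.7% *Fasl*. The cluster held 545 *Gzmb* UMIs in WT at a level of 3.01 and 77 UMIs in *Postn*-DTR at 1.64, so the level and the share were ordered in opposite ways.

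In a cluster led by *Trdv5*, with a median of 10767 UMIs, 22.2% of 45 WT cells held *Gzma*, 22.2% *Gzmb*, 22.2% *Prf1* and 26.7% *Fasl*. In a cluster led by *Penk* and *Crtam* 34.5% of 29 WT cells held *Fasl*, and in one led by *Trbv12-2* 26.4% of 87 WT cells did. All of these clusters held far deeper cells than the classes, and the part of depth in their shares was not tested. In the *Trdv5* cluster all 45 WT cells held the B cell gene *Cd79a*, at a level of 19.7 (943 UMIs), as did all 4 *Postn*-DTR cells at 22.2, whereas its level was at most 0.166 in each sub-cluster of the named T and NK classes.

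*Nkg7* was the member with the most UMIs in clusters without a name, though not with the largest share outside the classes. The classes held 72.2% of its UMIs in WT and 53.3% in *Postn*-DTR. Lowest among the members were *Gzmb* in WT (63.5%) and *Gzmc* in *Postn*-DTR (40.6%). Clusters without a name held 4728 of the 20299 *Nkg7* UMIs of WT and, for *Postn*-DTR, 2418 of 5930. It was held by 80.2% of 121 WT and 64.9% of 208 *Postn*-DTR cells of the cluster led by *Elane*, *Mpo* and *Prtn3*, with 3184 and 1981 UMIs, and by 58.1% and 63.3% of the cycling cells. In WT the shares were 40% in the *Trdv5* cluster, 48.3% in that of *Penk* and 46.0% in that of *Trbv12-2*. Among named cells it was found in 10.7% of WT and 12.2% of *Postn*-DTR monocyte-like cells. Other named WT clusters held it too, among them 13.3% of 45 cells of a plasma-like cluster, 8.24% of 182 neutrophil-like and 7.84% of 459 dendritic-like cells. The share was 0.940% of 1489 WT B2 B-like cells.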

How the results depend on the processing

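With 1 library per group the spread between mice is unknown, and classes of 48 to 141 *Postn*-DTR cells limit what low genes can show. The count called higher, 8, was 5 without the highest cell of each library and 5 with a minimum of 50 UMIs. The count called lower, 6, ran from 4 to 8 over the alternatives. Scaling to the summed UMIs gave 10 higher and 7 lower, and removing the highest 5% of doublet scores, an alternative chosen after seeing the data, gave 6 and 6. *Gzmb* stayed higher in all 6 classes under each alternative, though at 0.70 in CD4 T-like cells with gates on UMIs in place of clusters, and *Ifng* stayed lower in NK-like, NKT-like and CD8 T-like cells. Thinning to 2000 UMIs per cell changed whether some pairs of share intervals overlapped, among them those given above for *Gzmb*, *Ifng* and *Prf1*.

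Directions turned for a few log2 ratios. With the listed genes kept in the variable features, *Gzma* in NKT-like cells was 1.56, *Ifng* -0.85 in CD4 and 1.32 in Treg-like cells, and *Nkg7* 0.43 in gamma-delta T-like cells. At resolution 1.6, *Ifng* was -1.01 in CD4 and 0.84 in Treg-like cells, and *Nkg7* -0.48 in Treg-like and 0.29 in gamma-delta T-like cells. With gates, *Gzma* was 0.31 in NKT-like, *Gzmk* 0.027 in CD8 T-like, *Nkg7* -0.065 and *Ifng* 0.015 in Treg-like cells. Without the highest doublet scores *Gzma* in NKT-like cells was 0.15, and with CD4 and Treg-like cells pooled, also chosen after seeing the data, *Ifng* was 0.35. The cause was not tested.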
